A study of Mus musculus with 26 samples.

Results

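The comparison described here asks in which genes the effect of a fibrillin-1 mutation on the mouse aorta depended on the aortic region. It used all 16 libraries of untreated mice among the 26 of the study, in 4 groups of 4. All mice were male. Wild-type littermates (mice 1, 3, 5 and 7) and mice heterozygous for the C1041G allele, Fbn1 C1041G/+ (mice 2, 4, 6 and 8), each gave 1 library from the ascending and 1 from the descending aorta, as far as the shared library numbers tell. The allele is carried in the germline and so in every cell. The labels give no strain or age. For each gene the change from wild type to C1041G/+ in the ascending aorta was compared with the same change in the descending aorta, with the mouse as a block. The other 10 libraries served only to read the same genes in a separate experiment: they are ascending aortas of C1041G/+ mice, 5 treated with an antisense oligonucleotide against angiotensinogen labelled AGT-ASO and 5 with Control-ASO.

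Fibrillin-1 is the main protein of the microfibrils that scaffold elastic fibres and hold latent transforming growth factor beta (TGF-beta) in the vessel wall. Heterozygous loss of its normal function causes Marfan syndrome, in which the aortic root and the ascending aorta widen most. Smooth muscle cells of the ascending aorta descend from the neural crest and the second heart field, and those of the descending aorta from the somites, and the angiotensin II receptor is a drug target in this disease. Both regions carry the same mutation, so a comparison of the regions within each mouse is a direct way to find genes whose response to it differs.

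Of 15645 genes tested, 13 passed an adjusted p of 0.05, a background of 0.0831%. The difference of effects is given in log2, as ascending minus descending, so it is a ratio of 2 fold changes. It was positive in 5 genes (0.0320% of those tested): Kcnj15, Tnc, P2rx1, Serpini1 and Lox. It was negative in 8 (0.0511%): Hmcn1, Sdk2, Ednra, Cilp2, Sema3e, Rgs17, Cyp4b1 and Tnfrsf11b. The test used exactly this contrast, so the 13 genes are its result and no group property below was tested again. In all 13 the ascending-minus-descending differences of the 4 mutant mice lay apart from those of the 4 wild-type mice, which was so in 5.45% of all genes tested (852 genes). The test favours such genes, so this is no separate result. At an unadjusted p under 0.05 there were 1396 genes, or 8.92%.

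The 13 genes held several patterns. In 5 (Lox, Hmcn1, Sdk2, Ednra and Cyp4b1) the estimated effect of the mutation had opposite signs in the regions, a share of 38.5%, close to the 35.6% of all genes tested. In 4 (Tnc, P2rx1, Serpini1 and Cilp2) the effects had 1 sign and the ascending one was larger. In the other 4 (Kcnj15, Sema3e, Rgs17 and Tnfrsf11b) the effects had 1 sign and the descending one was larger. Within a region, 6 of the 13 changed with genotype in the ascending aorta, where 2.19% of all genes did, and 6 changed in the descending aorta, where 1.21% did. Of these, 3 changed in both (Kcnj15, P2rx1 and Sema3e), and 4 changed in neither (Lox, Hmcn1, Sdk2 and Ednra), so that for them only the difference between the regions passed. The 13 were chosen on the difference of these same effects in the same libraries. Shares above those of all genes therefore follow from the choice and are no separate result.

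**Figure D1:**
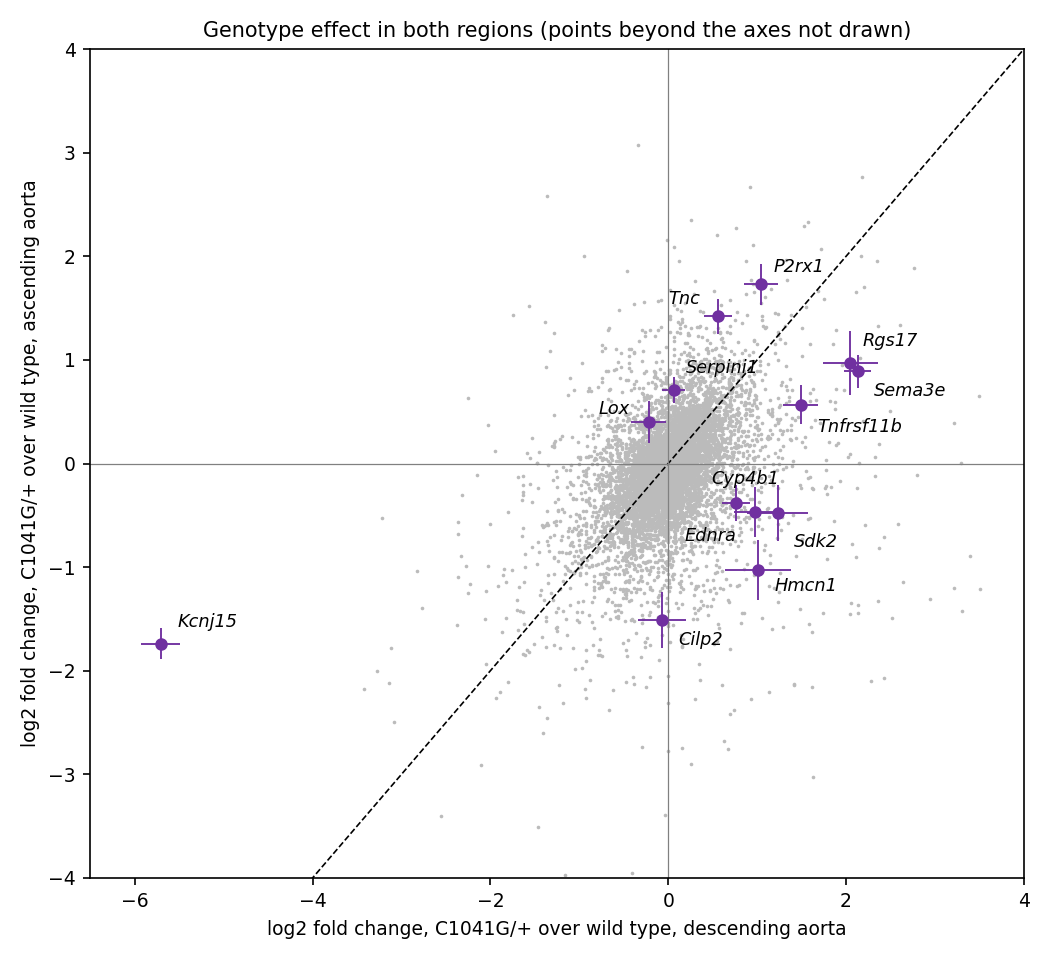
Change from wild type to C1041G/+ in the descending aorta (x axis) and in the ascending aorta (y axis), both as log2 fold changes, for all genes tested (grey; 5 lie beyond the axes) and for the 13 interaction genes (purple, with SE bars; 4 mice per group). Points on the dashed line would have equal effects; Kcnj15 lies far to the left at -5.71 and -1.74, and Lox, Hmcn1, Sdk2, Ednra and Cyp4b1 lie in the quadrants of opposite sign.

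Depth was 17171652 to 23959303 counts per library in the 16 untreated libraries. Levels are CPM, the count relative to the scaled library total, with their SD over 4 mice, and log2 values carry the SE of the model. The mean log2 level of 12 smooth muscle markers was 9.55 to 9.67 in the 4 groups, and Acta2 and Myh11 stood at 11500 to 13500 and 5490 to 5590 CPM; both define the smooth muscle of the labelled tissue. Fbn1 itself (GRCm38 chr2:125300594-125507993) stood at 408, 285, 498 and 434 CPM in wild-type and 348, 337, 383 and 386 CPM in C1041G/+ ascending aorta. In descending aorta it stood at 432, 312, 392 and 373 CPM in wild-type and 391, 352, 507 and 423 CPM in C1041G/+ mice. Its effects did not differ between regions beyond the threshold (log2 -0.28 ± 0.12, adjusted p = 0.53). The C1041G allele is a point mutation, so a gene count cannot check the genotype labels.

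The ion channel and receptor genes come first. Kcnj15 encodes an inwardly rectifying potassium channel, a class of channel that helps set the membrane potential of cells. It lies at GRCm38 chr16:95257558-95300260 on the plus strand. For orientation, the 250 bases before its annotated start (chr16:95257308-95257557) are shown because this gene gave the strongest result, and those before Sema3e (chr5:14025026-14025275, plus strand) because that gene had the largest log2 rise in the descending aorta of the 13. Both are RefSeq sequences on GRCm38.p6.

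Kcnj15: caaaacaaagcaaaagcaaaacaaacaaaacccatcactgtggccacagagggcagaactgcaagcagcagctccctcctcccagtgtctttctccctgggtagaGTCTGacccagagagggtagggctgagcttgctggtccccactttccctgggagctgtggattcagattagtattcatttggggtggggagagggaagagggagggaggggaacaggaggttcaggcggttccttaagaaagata
Sema3e: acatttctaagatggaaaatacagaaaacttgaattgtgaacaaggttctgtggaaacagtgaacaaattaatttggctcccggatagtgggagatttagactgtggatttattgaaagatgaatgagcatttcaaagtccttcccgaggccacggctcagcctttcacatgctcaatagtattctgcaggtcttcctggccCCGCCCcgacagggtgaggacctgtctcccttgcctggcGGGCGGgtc

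Capitals mark the core SMAD motif CAGAC (on the other strand, GTCTG) and the GC box GGGCGG (on the other strand, CCGCCC), both searched on both strands and not overlapping here. The RefSeq table held an entry for 11 of the 13 genes. CAGAC was found before the start of 5 of them (Cilp2, Cyp4b1, Ednra, Kcnj15 and Tnc), against 42.2% of 32851 promoters of the same length. GGGCGG was found before 6 (Cilp2, Cyp4b1, Rgs17, Sdk2, Sema3e and Tnc), against 32.7%, the AP-1 motif TGACTCA before Rgs17 only, against 4.46%, and a CArG box before none, against 1.47%. Such matches are descriptions of sequence and not shown to be sites.

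Kcnj15 was lower in C1041G/+ mice in both regions, and far lower in the descending aorta, where almost none of its transcript remained. In ascending aorta it stood at 172, 167, 204 and 179 CPM in wild-type and 57.2, 55.1, 53.0 and 50.5 CPM in C1041G/+ mice. In descending aorta the wild-type mice had 50.2, 39.1, 61.2 and 30.4 CPM and the C1041G/+ mice 1.01, 0.850, 0.747 and 0.828 CPM, which is 14 to 18 counts per library. Neither pair of genotype groups overlapped. In relative terms 29.9% of the wild-type mean was left in the ascending aorta and 1.90% in the descending aorta. It fell by 1.74 ± 0.15 on the log2 scale in the ascending aorta (adjusted p = 8.9e-06) and by 5.71 ± 0.22 in the descending aorta (adjusted p = 7.9e-11). The difference of effects was 3.93 ± 0.22 (adjusted p = 5.2e-06). The region difference within a mouse was 1.73 to 2.56 in wild-type and 5.79 to 6.10 in C1041G/+ mice. On the linear scale the order turned: the loss was larger in the ascending aorta (means lower by 126 against 44.4 CPM; difference of effects -82.1 CPM), so the direction of the regional difference of Kcnj15 depends on the scale.

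An antisense transcript model, Gm49643 (chr16:95297356-95301661), overlaps the end of Kcnj15 on the opposite strand, and no source used here states the strand setting of the counting, so reads of the pair may not be told apart. It was named after its values were seen. Gm49643 had 35, 62, 54 and 52 counts in wild-type and 23, 11, 19 and 13 in C1041G/+ ascending aorta. It had 14, 12, 17 and 19 counts in wild-type descending aorta and 0 in all 4 C1041G/+ libraries, where a count of 0 allows up to 3 counts per library, for counting error only. As for Kcnj15, its mean was highest in wild-type ascending and lowest in C1041G/+ descending aorta; its difference of effects did not pass (adjusted p = 0.12). Tnc, Lox, Hmcn1, Ednra, Sema3e and Fbn1 also overlap a gene model on the opposite strand.

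P2rx1 encodes an ATP-gated cation channel through which sympathetic nerves constrict arteries (chr11:72999103-73015200). Ascending levels were 22.9, 16.5, 27.6 and 22.0 CPM in wild-type and 82.2, 96.7, 58.4 and 57.5 CPM in C1041G/+ mice. Descending levels were 52.7, 46.8, 64.7 and 47.1 CPM in wild-type and 118, 132, 89.1 and 94.0 CPM in C1041G/+ mice. All mutant libraries lay above all wild-type libraries of their region. The rise was 1.73 ± 0.20 in log2 in the ascending (adjusted p = 0.0002) and 1.04 ± 0.19 in the descending aorta (adjusted p = 0.0088), with a difference of 0.68 ± 0.10 (adjusted p = 0.019). In CPM the mean rises were 51.4 and 55.6, and their difference, -4.16 CPM, had the opposite sign, with overlapping mouse differences. The call for P2rx1 is thus one on the log2 scale, and the direction in CPM is not settled by these mice.

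Ednra encodes the endothelin A receptor, the receptor by which endothelin-1 contracts vascular smooth muscle (chr8:77663031-77724464). Wild-type mice had 13.5, 12.4, 19.9 and 17.2 CPM in ascending and 8.16, 5.79, 7.40 and 11.1 CPM in descending aorta. C1041G/+ mice had 9.44, 7.67, 14.3 and 14 CPM in ascending and 12, 13.3, 20.7 and 17.8 CPM in descending aorta. Each of the 4 wild-type mice thus had more Ednra in its ascending aorta (log2 difference 0.63 to 1.43), and each of the 4 mutant mice more in its descending aorta (-0.79 to -0.35). The effects differed between regions by -1.46 ± 0.18 (adjusted p = 0.0064). The genotype effect did not pass in either region alone (log2 -0.47 ± 0.24, adjusted p = 0.34, and 0.98 ± 0.24, adjusted p = 0.065), although the descending groups did not overlap.

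Rgs17 encodes a regulator that ends signalling of G proteins downstream of such receptors (chr10:5825663-5922400). Its level ranged from 3.42 to 8.13 CPM in wild-type and 9.08 to 14.1 CPM in C1041G/+ ascending aorta, and from 2.80 to 11.2 CPM and 21.1 to 29.3 CPM in descending aorta. It rose in the descending aorta (log2 2.05 ± 0.31, adjusted p = 0.0026) and did not pass in the ascending aorta (0.97 ± 0.31, adjusted p = 0.13), although neither pair of groups overlapped. Between the regions its effects differed by -1.16 ± 0.19 (adjusted p = 0.038).

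**Figure D2:**
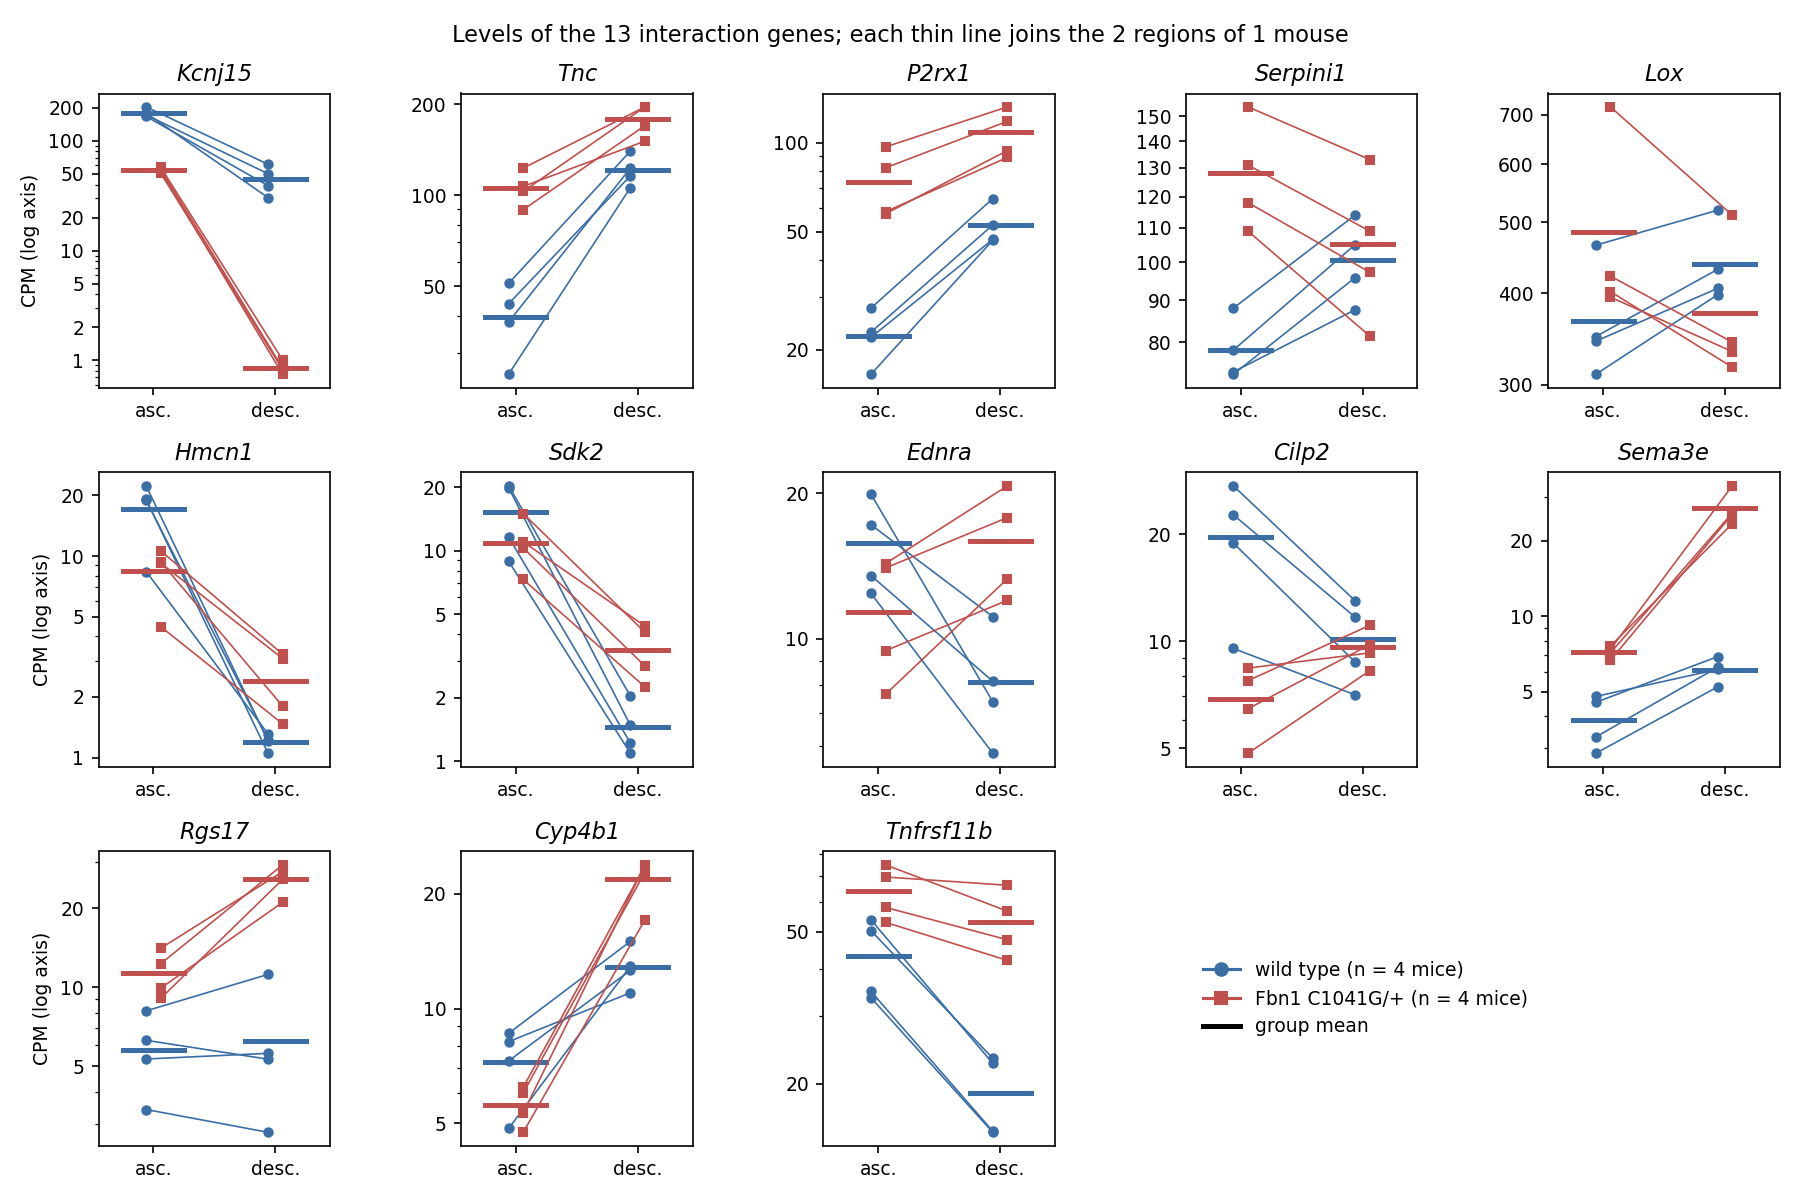
Level of each of the 13 genes in CPM (log axis) in ascending (asc.) and descending (desc.) aorta. Circles are wild-type and squares C1041G/+ libraries, thin lines join the 2 regions of 1 mouse and thick bars are means of 4 mice. Lines of the genotypes cross or differ in slope in every panel; for Ednra, Lox, Serpini1 and Cilp2 they slope in opposite directions.

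The matrix genes among the 13 were Lox, Tnc, Cilp2 and Hmcn1. Lox encodes lysyl oxidase, the enzyme that cross-links elastin and collagen, and lies on chromosome 18 (52516067 to 52529867). Wild-type mice had 465, 310, 349 and 344 CPM in ascending and 519, 398, 431 and 406 CPM in descending aorta, so all 4 had less in the ascending aorta. C1041G/+ mice had 718, 402, 395 and 422 CPM in ascending and 511, 317, 333 and 343 CPM in descending aorta, so all 4 had more in the ascending aorta. Mouse 2 was the highest mutant in both regions, and the genotype groups overlapped in each region. The region difference within a mouse was -0.36 to -0.16 in wild-type and 0.25 to 0.49 in C1041G/+ mice, and the difference of effects was 0.61 ± 0.09 (adjusted p = 0.023). The genotype effects themselves did not pass (log2 0.40 ± 0.20, adjusted p = 0.34, and -0.22 ± 0.20, adjusted p = 0.78).

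Tnc encodes tenascin-C, a matrix glycoprotein made in injured and remodelling tissue (chr4:63959785-64047015). In ascending aorta it stood at 38.1, 25.6, 51.1 and 43.8 CPM in wild-type and 123, 107, 89.6 and 103 CPM in C1041G/+ mice. In descending aorta it stood at 123, 106, 140 and 116 CPM in wild-type and 196, 151, 170 and 196 CPM in C1041G/+ mice. It rose in the ascending aorta (log2 1.42 ± 0.17, adjusted p = 0.00023), to 106 ± 13.6 CPM, below the wild-type descending mean of 121 ± 14.4 CPM. In the descending aorta the groups did not overlap but the effect did not pass (0.56 ± 0.16, adjusted p = 0.13). That gave a difference of effects of 0.89 ± 0.14 (adjusted p = 0.042). Its mean rises in CPM, 66.0 and 56.9, differed by 9.10 CPM, with overlapping mouse differences (exact permutation test, p = 0.57), which does not show that they are equal.

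Cilp2 encodes a matrix protein of the cartilage intermediate layer family (chr8:69880369-69887687). Ascending levels were 9.55, 18.9, 27.4 and 22.7 CPM in wild-type and 8.41, 4.84, 7.75 and 6.46 CPM in C1041G/+ mice. Descending levels were 7.07, 8.74, 13 and 11.7 CPM in wild-type and 9.28, 8.27, 11.1 and 9.79 CPM in C1041G/+ mice. It fell by 1.51 ± 0.27 in log2 in the ascending aorta (adjusted p = 0.0057), where the groups did not overlap. The descending groups overlapped, with a log2 change of -0.07 ± 0.27 (adjusted p = 0.96). The effects differed between regions by -1.41 ± 0.19 (adjusted p = 0.0064).

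Hmcn1 encodes hemicentin-1, a large matrix protein of the immunoglobulin superfamily (chr1:150562524-150993435). In wild-type mice it was found mainly in the ascending aorta, at 8.38 to 22.3 CPM against 1.05 to 1.31 CPM in descending aorta. In C1041G/+ mice the levels were 4.46 to 10.6 and 1.47 to 3.26 CPM. The regions thus lay closer together in mutant mice: the region difference within a mouse was 2.66 to 4.17 in wild-type and 1.57 to 2.36 in C1041G/+ mice. Between the regions its effects differed by -1.97 ± 0.32 (adjusted p = 0.035), and the genotype effect did not pass in the ascending (log2 -1.03 ± 0.29, adjusted p = 0.078) or the descending aorta (1.01 ± 0.37, adjusted p = 0.28).

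Secreted and guidance factors were Sema3e, Tnfrsf11b and Serpini1. Sema3e encodes a semaphorin that guides growing vessels through the receptor plexin D1 (chr5:14025276-14256689). It stood at 4.80, 4.55, 2.85 and 3.31 CPM in wild-type and 7.39, 6.69, 7.15 and 7.61 CPM in C1041G/+ ascending aorta. In descending aorta the values were 6.15, 6.91, 5.24 and 6.27 CPM in wild-type and 33.1, 25.5, 25.8 and 23.4 CPM in C1041G/+ mice. Sema3e rose in both regions, by 0.89 ± 0.16 in log2 in the ascending (adjusted p = 0.0052) and 2.13 ± 0.15 in the descending aorta (adjusted p = 4.9e-07). That gave a difference of effects of -1.21 ± 0.18 (adjusted p = 0.019). In CPM the mean rises were 3.33 and 20.8.

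Tnfrsf11b encodes osteoprotegerin, a secreted decoy receptor that binds the osteoclast factor RANKL and is made by vascular smooth muscle (chr15:54250619-54278484). In ascending aorta it stood at 34.9, 33.6, 53.8 and 50.4 CPM in wild-type and 53.0, 58.0, 69.7 and 75.0 CPM in C1041G/+ mice. In descending aorta it stood at 15, 14.9, 22.6 and 23.3 CPM in wild-type and 42.1, 47.7, 66.3 and 56.7 CPM in C1041G/+ mice. The ascending groups overlapped and the descending groups did not. It rose by 1.49 ± 0.20 in the descending aorta (adjusted p = 0.00081), with a log2 change of 0.57 ± 0.19 in the ascending aorta (adjusted p = 0.15). The wild-type region difference, 1.11 to 1.25 within a mouse, was 0.07 to 0.40 in C1041G/+ mice. This gave the second smallest p of all genes, with a difference of effects of -0.91 ± 0.10 (adjusted p = 0.0015).

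Serpini1 encodes neuroserpin, an inhibitor of tissue plasminogen activator (chr3:75557547-75643495). Ascending levels were 73.7, 78.3, 73.2 and 88.0 CPM in wild-type and 131, 109, 118 and 154 CPM in C1041G/+ mice. Descending levels were 87.6, 105, 95.8 and 114 CPM in wild-type and 109, 81.4, 97.2 and 133 CPM in C1041G/+ mice. It rose in the ascending aorta (log2 0.71 ± 0.13, adjusted p = 0.0074), and the descending groups overlapped (0.06 ± 0.13, adjusted p = 0.93). All 4 wild-type mice had less of it in the ascending than in the descending aorta and all 4 mutant mice had more. The effects differed between regions by 0.66 ± 0.08 (adjusted p = 0.0064).

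The remaining genes were Sdk2 and Cyp4b1. Sdk2 encodes sidekick-2, a homophilic adhesion protein best known from retinal synapses (chr11:113776374-114067046). In ascending aorta it stood at 8.91, 11.6, 20.3 and 19.9 CPM in wild-type and 7.30, 10.3, 11 and 15 CPM in C1041G/+ mice. In descending aorta it stood at 1.09, 1.22, 2.04 and 1.48 CPM in wild-type and 2.25, 2.83, 4.38 and 4.09 CPM in C1041G/+ mice. Only the descending groups stood apart, and neither genotype effect passed (log2 -0.48 ± 0.27, adjusted p = 0.41, and 1.23 ± 0.34, adjusted p = 0.11). The region difference within a mouse was 3.0 to 3.73 in wild-type and 1.33 to 1.87 in C1041G/+ mice, and the difference of effects was -1.67 ± 0.22 (adjusted p = 0.0064). Cyp4b1, which encodes a cytochrome P450 monooxygenase (chr4:115624725-115647723), ranged from 4.85 to 8.61 CPM in wild-type and 4.74 to 6.22 CPM in C1041G/+ ascending aorta. Its descending levels were 11 to 15 and 17.1 to 23.8 CPM, a rise of 0.76 ± 0.16 (adjusted p = 0.019), against -0.38 ± 0.17 in the ascending aorta (adjusted p = 0.28). Its difference of effects was -1.12 ± 0.19 (adjusted p = 0.046).

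**Figure D3:**
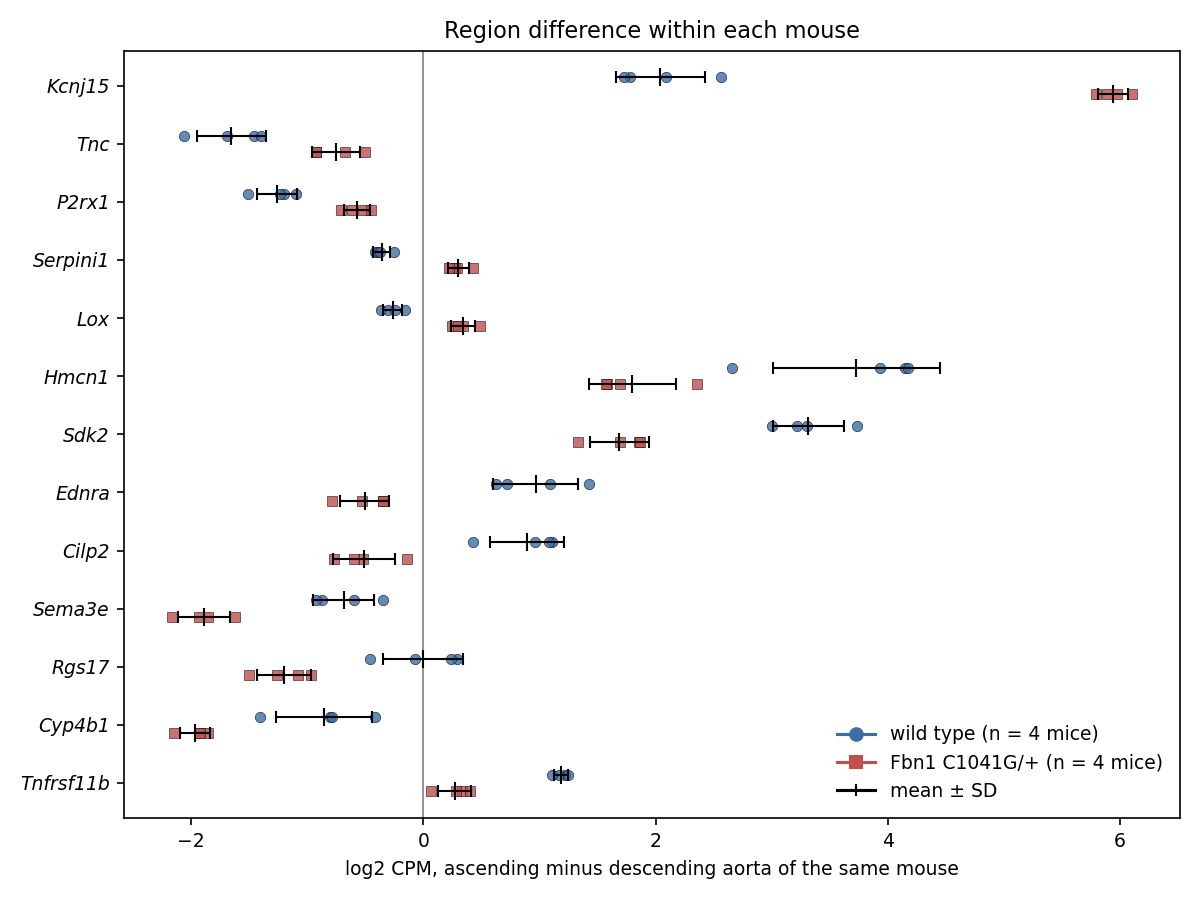
Log2 CPM of the ascending minus the descending aorta of the same mouse (x axis) for each of the 13 genes, in 4 wild-type (circles) and 4 C1041G/+ mice (squares); black marks are mean ± SD. The genotypes do not overlap in any of the 13, and Serpini1, Lox, Ednra and Cilp2 change sign between genotypes.

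Read from the side of the regions, 8 of the 13 genes had a smaller region difference in mutant than in wild-type mice, a share of 61.5% beside 51.2% of all genes. Among these, Hmcn1, Sdk2 and Tnfrsf11b kept more transcript in the ascending aorta, and Tnc and P2rx1 more in the descending aorta, in both genotypes. Kcnj15, Sema3e, Rgs17 and Cyp4b1 had a wider region difference in mutant mice, and so had Lox, in the opposite direction to wild type. For Rgs17 the wild-type region difference did not pass (log2 -0.05 ± 0.14, adjusted p = 0.89), and the mutant one was -1.20 ± 0.12 (adjusted p = 9.3e-06).

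How far each call held depends on the treatment of the mouse and on single mice. Only Kcnj15 passed in all 18 other fits, with a difference of effects of 3.72 to 4.10. With no mouse block it was the 1 gene that passed, and the other 12 had adjusted p-values of 0.085 to 0.95. With the mouse as a random effect 5 genes passed, of which only Kcnj15 is among the 13. All 13 passed with DESeq2, which called 100 genes. All 13 also kept the sign of their log2 difference in every fit. Serpini1, Sdk2, Ednra, Cilp2 and Tnfrsf11b passed whichever mouse was left out. These 5 passed in 14 of the 18 fits, all except those with no mouse block, a random mouse effect, or the Schwann cell or cartilage score. P2rx1 and Sema3e lost the call without mouse 2, 4 or 6, and Tnc without mouse 1, 2, 4, 6 or 8 (adjusted p up to 0.14). Lox lost it without mouse 2, 4, 5, 6 or 8 (up to 0.13), Hmcn1 without any of mice 3 to 8 (up to 0.14), and Rgs17 without mouse 2 or any of mice 4 to 8 (up to 0.13). Of the fits that leave out 1 mouse, Cyp4b1 passed only in the one without mouse 1. On the linear CPM scale the mouse differences of the genotypes overlapped in Tnc, P2rx1, Hmcn1 and Sdk2 and lay apart in the other 9, which were chosen on these same mice. The number of genes passing was 46 without mouse 1, 26 without mouse 3, 7 without mouse 2, 6 without mouse 6 and 8 without mouse 8.

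**Figure D4:**
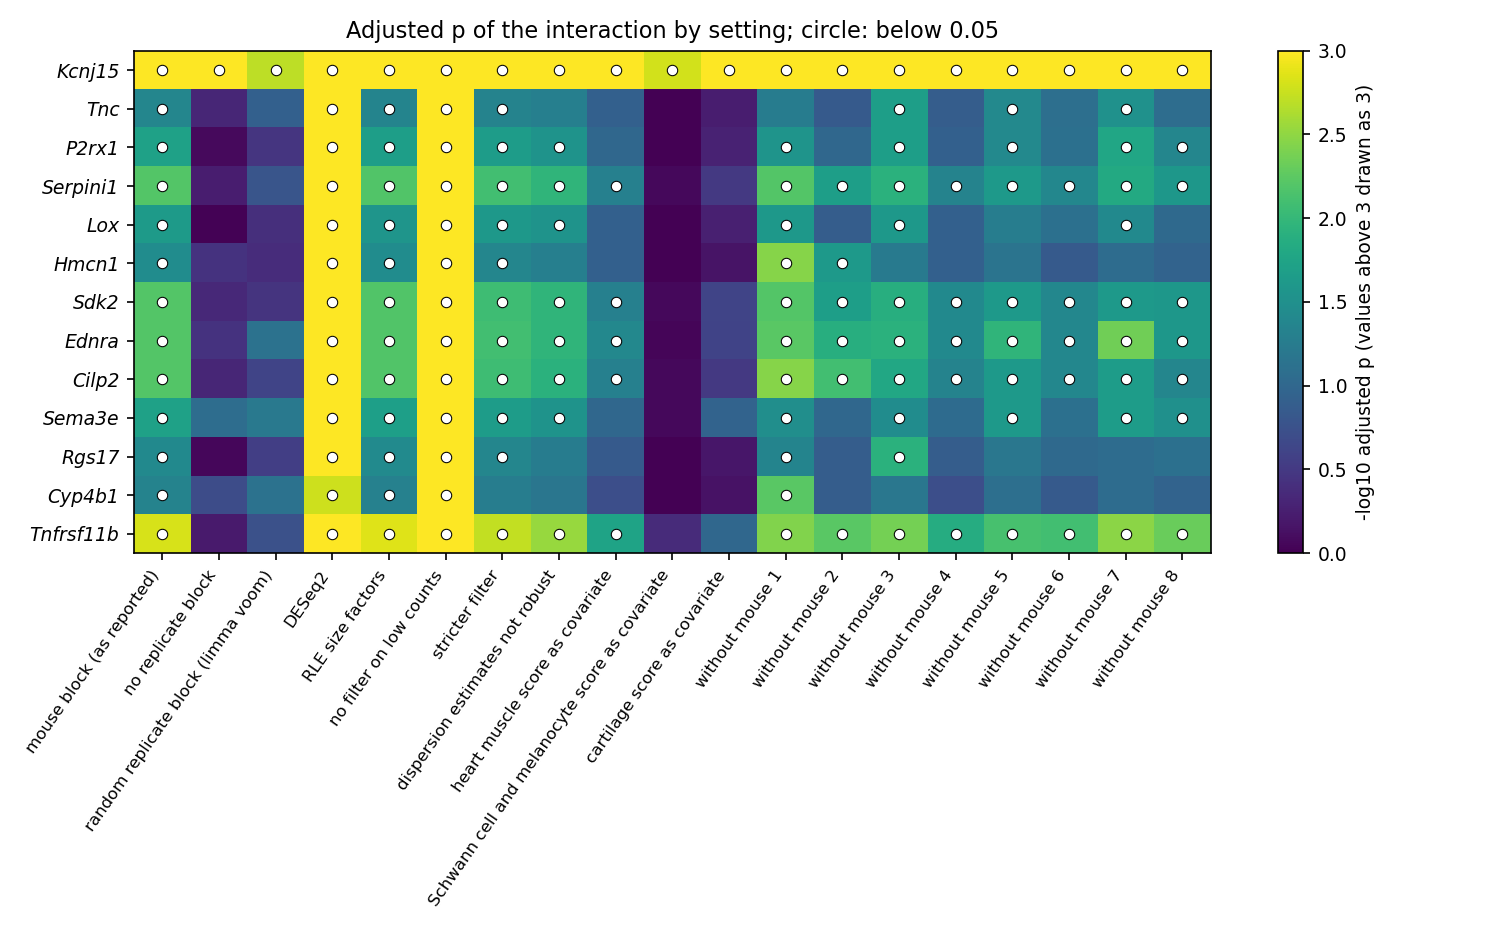
Adjusted p of the difference of effects (colour, as -log10, with values above 3 drawn as 3) for each of the 13 genes (rows) under each fit (columns); a white circle marks an adjusted p below 0.05. Kcnj15 has a circle in every column, and the columns without a mouse block, with a random block and with the Schwann cell or cartilage score hold no other circle.

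Scores of cell type markers were compared by the same contrast. Of 15 marker lists none passed (lowest adjusted p = 0.41). An exact permutation test over these mice cannot go below p = 0.0286, so a single list could not pass after adjustment over 15 lists. Equal cell content is thus not shown. The part of these cell types in the 13 results was examined only by adding a score to the fit, and a lost call there does not measure it. In bulk tissue, fewer cells of a type and less RNA per cell cannot be told apart. The mean log2 level of 16 Schwann cell and melanocyte markers was 1.77 ± 0.38 in wild-type and 0.88 ± 0.67 in C1041G/+ ascending aorta, and -0.42 ± 0.54 and 0.09 ± 0.34 in descending aorta. Its difference of effects was -1.41 (exact permutation test over mice, p = 0.029, adjusted p = 0.41 over 15 marker lists), and 0 of the 15 markers tested had a positive estimate. The summed level of these markers was 304 to 363 and 241 to 269 CPM in ascending, and 237 to 297 and 236 to 264 CPM in descending aorta. The melanocyte enzyme gene Dct was at 0 in all wild-type descending libraries. With that score in the fit 2 genes passed, Kcnj15 and Angptl7, the latter named after its values were seen. In the score too the mouse differences of the genotypes lay apart, so this fit can hardly separate score and contrast. The estimates of Tnc and Tnfrsf11b hardly changed with it (0.89 and -0.92), and those of Sdk2 and Sema3e grew in size (-1.76 and -1.28). Those of the other genes among the 13 shrank, that of Ednra to -0.97. Adding such a score leaves 5 residual degrees of freedom in the mouse-blocked fit.

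Cartilage markers summed to 153 to 443 and 169 to 231 CPM in wild-type and mutant ascending aorta and to 86.3 to 131 and 140 to 179 CPM in descending aorta. The members did not move together. Acan had 1021 to 1102 and 2059 to 2792 counts in ascending, and 377 to 543 and 1035 to 1147 in descending aorta. Chad went the other way, at 401 to 1516 and 40 to 168 counts, and 36 to 85 and 5 to 18. The cartilage score in descending aorta was -0.32 ± 0.18 in wild-type and -0.44 ± 0.29 in C1041G/+ mice. Its difference of effects was -0.89 (exact permutation test, p = 0.086, adjusted p = 0.41), and 1 of 12 markers tested had a positive estimate. Matn1 was at 0 in both ascending groups, and with that score in the fit only Kcnj15 passed. Heart muscle markers summed to 347 to 1500 and 430 to 827 CPM in ascending aorta and 116 to 194 and 176 to 298 CPM in descending aorta, with a score difference of -0.92 (exact permutation test, p = 0.37). Nppb was at 0 in both descending groups. With the heart score in the fit 6 genes passed, all among the 13: Kcnj15, Ednra and Tnfrsf11b, and Serpini1, Sdk2 and Cilp2 at an adjusted p = 0.0497. The fibroblast score had a difference of -0.39 (exact permutation test, p = 0.11), with 1 of 16 markers positive, and the erythroid score one of 1.20 (exact permutation test, p = 0.057), with 7 of 7 positive. The part of fibroblast and erythroid content in the results was not tested.

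Pathway lists place the 13 genes among their relatives. They were made with earlier results of these data known. For every list below, the shares to compare with are those of all genes tested: 8.92% at an unadjusted p under 0.05 and 49.0% with a positive estimate. Of 26 targets of TGF-beta, 2 were called, Lox and Tnc, both positive, and the list's median difference of effects was 0.04, beside -0.01 over all genes. Its estimates ran from -1.70 to 0.89, and 14 had an unadjusted p under 0.05 with edgeR, as had 8.92% of all genes tested. Of 18 genes known to respond to angiotensin II, Lox and Tnc were again called, and 7 had an unadjusted p under 0.05. Their median was 0.52 and 16 estimates were positive, where 49.0% of all genes tested had a positive estimate. The connective tissue growth factor gene Ccn2, in both lists, had a difference of 0.50 ± 0.11 (adjusted p = 0.12). DESeq2 called 100 of the 15272 genes to which it gave an adjusted p (0.655%; 0.282% positive and 0.373% negative). It called 4 members of the angiotensin list, all positive, and 7 of the TGF-beta targets, 6 of them positive. Lox, Tnc and Ccn2 were among its calls in both lists. Of 29 genes of the TGF-beta pathway itself none was called by edgeR or DESeq2, with 5 at an unadjusted p under 0.05. The smallest p was that of Lrrc32, which encodes a surface anchor of latent TGF-beta (0.48 ± 0.12, adjusted p = 0.2).

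Among 27 elastic fibre genes, Lox was called, 9 had an unadjusted p under 0.05, 14 estimates were positive and the median was 0.02. Mfap4, a microfibril-associated gene, fell in both regions, from 757 to 463 CPM in ascending and from 564 to 224 CPM in descending aorta (log2 -0.71 ± 0.11, adjusted p = 0.0015, and -1.33 ± 0.11, adjusted p = 2e-06). Its difference of effects was 0.63 ± 0.11 (adjusted p = 0.057). Fbln5, which encodes the elastic fibre assembly protein fibulin-5, and Eln, which encodes elastin, had differences of 0.53 ± 0.12 (adjusted p = 0.13) and 0.51 ± 0.12 (adjusted p = 0.17). DESeq2 called all of Lox, Mfap4, Fbln5 and Eln, each positive. Of 30 collagen genes edgeR called none, 5 had an unadjusted p under 0.05 and DESeq2 called 1, Col5a3 (log2 -1.41 ± 0.39, adjusted p = 0.3 with edgeR). The collagen median was -0.22, with 7 positive estimates.

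Genes of bone morphogenetic protein and activin signalling had no call by edgeR among 23, with a median of -0.18, 5 positive estimates and 6 genes at an unadjusted p under 0.05. DESeq2 called 2, both negative: the antagonist gene Chrdl1, at 28.3 and 34.0 CPM in ascending and 36.2 and 78.7 CPM in descending aorta (-0.86 ± 0.20, adjusted p = 0.2 with edgeR), and the ligand gene Bmp2 (-1.09 ± 0.26, adjusted p = 0.21 with edgeR). The antagonists Fst (-0.62 ± 0.18, adjusted p = 0.27) and Nog (-1.88 ± 0.63, adjusted p = 0.36) did not pass. Of 16 genes of the insulin-like growth factor axis edgeR called none, with 8 at an unadjusted p under 0.05 and a median of -0.22. DESeq2 called 3, Pappa2, Igfbp5 and Igfbp7. Pappa2, a protease of growth factor binding proteins, had means of 4.89 and 1.86 CPM in ascending and 5.09 and 6.55 CPM in descending aorta (-1.72 ± 0.34, adjusted p = 0.11). Its relative Pappa rose in the descending aorta (log2 1.46 ± 0.19, adjusted p = 0.0003), and its difference of effects did not pass (-1.0 ± 0.24, adjusted p = 0.17).

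Of 40 contractile genes edgeR and DESeq2 called none, 8 had an unadjusted p under 0.05 and the median was 0.05. Tagln had a difference of 0.33 ± 0.10 (adjusted p = 0.3) at only 51.6 to 67.9 CPM, and it overlaps Pcsk7 on the opposite strand, so its counts are uncertain. Desmin (Des) had one of 0.34 ± 0.11 (adjusted p = 0.36), Actg2 one of 0.36 ± 0.12 (adjusted p = 0.36) and Fhl2 one of -0.96 ± 0.33 (adjusted p = 0.43). Of 32 matrix protease genes and inhibitors edgeR called none (13 at an unadjusted p under 0.05), and DESeq2 called 2, both positive, Htra1 among them. Of 35 Wnt genes edgeR called none (12 at an unadjusted p under 0.05), and DESeq2 called Sfrp1 and Wnt5a, in opposite directions. Sfrp1, a secreted Wnt antagonist, had a difference of 0.53 ± 0.10 (adjusted p = 0.091 with edgeR) and the ligand gene Wnt5a one of -0.81 ± 0.21 (adjusted p = 0.23).

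Of 12 genes of the renin-angiotensin system edgeR called none (2 at an unadjusted p under 0.05) and DESeq2 called Ace. That gene, for angiotensin-converting enzyme, had means of 643 and 711 CPM in ascending and 724 and 545 CPM in descending aorta, a fall in the descending aorta (log2 -0.41 ± 0.10, adjusted p = 0.045) and a difference of 0.55 ± 0.12 (adjusted p = 0.12). Of 30 glycosyltransferase genes edgeR called none (3 at an unadjusted p under 0.05) and DESeq2 called Galnt6, an enzyme that starts mucin-type sugar chains. Galnt6 fell in both regions, from 23.9 to 9.08 CPM and from 14.1 to 2.04 CPM, with a difference of 1.32 ± 0.24 (adjusted p = 0.062). With edgeR and with DESeq2, Kcnj15 was the only gene called among 33 potassium channel genes, P2rx1 among 15 purinergic genes and Sema3e among 30 semaphorin and plexin genes. Of 16 regulators of G protein signalling edgeR called Rgs17, and DESeq2 Rgs17 and Rgs6.

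The antisense experiment measured the 13 genes again in C1041G/+ ascending aorta, in other mice and normalized apart. Some mean levels differed between Control-ASO and untreated mutant ascending aorta: 165 and 485 CPM for Lox, 214 and 128 for Serpini1, 26.0 and 11.3 for Rgs17. Others were close, with 57.9 and 54.0 CPM for Kcnj15 and 70.1 and 63.9 for Tnfrsf11b. Why levels differed was not tested. The mitochondrial share of counts was 3.76 to 7.0% in AGT-ASO and 5.52 to 11.13% in Control-ASO libraries. Its part in the estimates below was not tested. With edgeR, AGT-ASO changed 0 of the 13 against the control oligonucleotide, where 10 of 14981 genes (0.0668%) passed, and 3 of the 13 had an unadjusted p under 0.05, as had 12.7% of all genes. Those were P2rx1 (36.1 ± 4.05 against 47.2 ± 12 CPM, log2 -0.39 ± 0.15, adjusted p = 0.3), Serpini1 (192 ± 9.57 against 214 ± 7.28 CPM, -0.16 ± 0.06, adjusted p = 0.3) and Rgs17 (15.1 ± 2.56 against 26.0 ± 8.32 CPM, -0.78 ± 0.22, adjusted p = 0.21). All 3 estimates are opposite in sign to the ascending genotype effect. DESeq2 called Rgs17 (adjusted p = 0.011), and so did edgeR without control replicate 8 (adjusted p = 0.0063). Over all 13, 8 estimates were opposite to the ascending genotype effect, and 48.5% of 14743 genes were. Kcnj15 had a mean of 71.3 ± 14.3 CPM in AGT-ASO and 57.9 ± 16.6 CPM in control libraries (0.30 ± 0.21, adjusted p = 0.6). Since no descending aorta was given an oligonucleotide, the region contrast has no counterpart there.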

How the data were processed

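Bulk RNA was sequenced from mouse aorta, 26 libraries. The authors deposited unnormalized read counts for each Ensembl gene. Per the submitters' processing notes, reads went through fastp and STAR 2.6.1d on mm10; no source used here names the counting tool, strand setting or annotation release. Names and positions came from GENCODE M21 (same build, GRCm38), which names 99.93% of 54532 identifiers.

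The 16 untreated libraries were fitted with edgeR 4.0.16 in R 4.3.3 (TMM, filterByExpr, robust quasi-likelihood F test, two-sided), with the mouse as a fixed block, leaving 6 residual degrees of freedom. Genotype within a region came from a fit of the 4 groups without the block (12 residual degrees of freedom), and AGT-ASO from the 10 other libraries (14981 genes). P-values were adjusted over all genes (Benjamini-Hochberg, threshold 0.05). Library numbers pair the regions: after removing group means, all 8 same-numbered pairs correlated across genes at r of 0.130 to 0.268. Other pairs had a mean of -0.028. Removing group means makes that value follow from the same-numbered pairs, so it is no independent baseline. Of the 8 ascending libraries 5 correlated best with their own number. Each mouse has 1 library per region. In the blocked fit the error is therefore the spread, between mice of a genotype, of the region difference within a mouse. In the fit of the 4 groups it is the spread of levels between the mice of a group. Exact permutation tests over 4 against 4 mice cannot go below p = 0.0286. Depth was 17171652 to 23959303 counts per library in the 16 untreated libraries and 17355174 to 28554356 in the 10 ASO libraries. The reads carry no molecular identifiers.

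Named genes were Fbn1, up to 15 called genes per direction with a group mean of at least 1 CPM and no provisional name, and up to 4 members with the smallest p of each list described. A list member that this rule names is not reported here. The 40 lists (25 pathway, 15 marker) and the choice of contrast were made with earlier results of these data known. Alternatives were no block or a random block (limma 3.58.1 voom), DESeq2 1.42.0, RLE factors, other filters, no robust estimation, a heart muscle score and leaving out each mouse. Added after seeing the data were Schwann cell and cartilage scores and the linear CPM scale. The scripts were tested on simulated data.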

Additional observations from a re-analysis of the deposited data

Results flagged for a closer look

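The effect of the mutation differed between the regions by the test of the difference itself in 13 genes. In log2, ascending minus descending, it was positive in Kcnj15 (3.93), Tnc (0.89), P2rx1 (0.68), Serpini1 (0.66) and Lox (0.61). It was negative in Hmcn1 (-1.97), Sdk2 (-1.67), Ednra (-1.46), Cilp2 (-1.41), Sema3e (-1.21), Rgs17 (-1.16), Cyp4b1 (-1.12) and Tnfrsf11b (-0.91).

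A single library stood apart from the others of its group in 5 of 84 groups of values, where chance at 1 in 20 gives 4.2. Mutant mouse 2 had 718 CPM of Lox in ascending aorta, with the others at 395 to 422, and 511 CPM in descending aorta, with the others at 317 to 343. The same mouse had 17.1 CPM of Cyp4b1 in descending aorta, with the others at 22.8 to 23.8. Control-ASO replicate 8 had 145 CPM of Tnc, with the others at 66.4 to 88.3, and AGT-ASO replicate 14 had 209 CPM of Serpini1, with the others at 186 to 192.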

How the results depend on the processing

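Against 13 genes with the mouse block (5 positive, 8 negative), the fit with no replicate block called 1 (1 and 0), and the random replicate block called 5 (4 and 1): Kcnj15, Msc, Siglecg, Tnnt1 and Gm49643, the latter 4 chosen after their values were seen. DESeq2 called 100 (43 and 57) and edgeR with no filter on low counts 428 (141 and 287), in both cases with all 13 among them. Without robust dispersion estimates 9 passed (4 and 5), with a stricter filter 12 and with RLE factors 13. The heart muscle score as a covariate left 6 (2 and 4), the Schwann cell and melanocyte score 2 (2 and 0) and the cartilage score 1 (1 and 0). Leaving out 1 mouse gave 6 to 46 genes, 2 to 15 positive and 4 to 40 negative. A fit that adds a covariate or leaves out a mouse has fewer degrees of freedom. The cause of the changed number of genes was not tested for any setting. On the linear CPM scale the difference of effects turned its sign in Kcnj15 (-82.1 CPM) and P2rx1 (-4.16 CPM). Mme, a gene of the renin-angiotensin list that was not called, turned to 0.47 with the Schwann cell and melanocyte score. For genotype within a region, 6 and 6 of the 13 passed also with the random replicate block. AGT-ASO changed 1 of the 13 with DESeq2 (Rgs17), and 0 to 1 when 1 library was left out. With 4 mice per genotype, a difference that did not pass is not shown to be absent.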

Other observations

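Lists outside the matrix and signalling genes above had few or no calls for the difference of effects. Of 36 cell cycle genes edgeR and DESeq2 called none, with 1 at an unadjusted p under 0.05, and 27 had a positive estimate (median 0.23). Foxm1, a transcription factor of dividing cells, had means of 2.42 and 4.10 CPM in ascending and 2.53 and 2.4 CPM in descending aorta (wild type, then C1041G/+), and its difference of effects was 0.74 ± 0.32 (adjusted p = 0.53). Of 30 early stress response genes edgeR and DESeq2 called none, with 5 at an unadjusted p under 0.05 and 25 positive estimates (median 0.17). Ier2 had a difference of 0.45 ± 0.12 (adjusted p = 0.21) and the nuclear receptor gene Nr4a3 one of 0.62 ± 0.19 (adjusted p = 0.3).

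Of 25 inflammation genes edgeR called none, with 5 at an unadjusted p under 0.05, and DESeq2 called Vcam1 and Cxcl12, both positive (median of the list 0.38, 18 positive estimates). Vcam1, the adhesion molecule that binds leukocytes, had means of 249 and 344 CPM in ascending and 205 and 172 CPM in descending aorta, and a difference of 0.69 ± 0.17 (adjusted p = 0.21 with edgeR). Of 22 Hox genes, which mark position along the body axis, edgeR and DESeq2 called none, with 0 at an unadjusted p under 0.05 and a median of 0.01. Some were near 0 in ascending aorta: wild-type and C1041G/+ means were 0.0575 and 0 CPM for Hoxb6 and 0.309 and 0.168 CPM for Hoxa7. In descending aorta these 2 stood at 30.8 and 30.0, and 36.4 and 36.7 CPM. For such genes an ascending fold change is hardly measurable, unlike for Hoxa4 (5.70 and 5.07 CPM in ascending aorta).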
